A study of Mus musculus with 6 samples.

Results

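The 35 genes described here encode subunits of the chromatin complexes NuRD (13 genes), SWI/SNF (13 genes), Polycomb (5 genes) and Sin3 (2 genes), together with the corepressors Ctbp1 and Ctbp2. They were chosen by name, as chromatin partners of the transcription factor Ikaros, and each is represented by its transcript with the highest mean RPKM (reads per kilobase of transcript, scaled to the library's reads). All 35 are among the 22098 gene symbols measured, and 34 were tested because their mean over all libraries was 1 RPKM or more, as it was for 10943 genes. Smarcd3 did not, and its level lay between 0.7 and 1.0 RPKM. RNA was sequenced from proB cells, early B-lymphocyte precursors, sorted from the bone marrow of C57BL/6 mice aged 6 to 7 weeks. The 3 genotypes were wild type (wt), Ikaros ZnF1-/- (ZnF1 mutant) and Ikaros ZnF4-/- (ZnF4 mutant), which lack the first or the fourth zinc finger of the Ikaros DNA-binding domain. Each genotype gave 1 library from Hardy fraction B and 1 from the combined Hardy fractions C and C' (fraction C), successive stages defined by surface markers. The labels do not say how many mice gave each library, and no group has a replicate, so a difference between single libraries cannot be checked.

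Ikaros recruits chromatin complexes to its target genes in lymphocytes, and NuRD is the one it is best known to bind. NuRD joins a nucleosome-sliding ATPase (Chd3 or Chd4) to histone deacetylases (Hdac1 and Hdac2) through scaffold proteins of the Mta family, while SWI/SNF slides or evicts nucleosomes and commonly opens chromatin. Polycomb repressive complexes methylate or ubiquitinate histones at silenced genes, Sin3 is a scaffold for the same deacetylases, and CtBP proteins bridge DNA-binding repressors to further enzymes. Many of these positions can be filled by either of a few related proteins, so the relative amount of related subunits is part of what defines the complexes in a cell.

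The libraries differed in ways that touch the comparisons. None of the 10 B lineage markers was at 0 in any library, and their summed level was between 1948.3 RPKM (ZnF1 mutant, fraction C) and 4940.5 RPKM (ZnF4 mutant, fraction B). The ZnF1 fraction C library stood apart: its 14 myeloid markers summed to 43505.1 RPKM against 1024.7 to 3859.3 in the others, and its 10 erythroid markers to 3749.6 against 134.2 to 319.9. The 14 proliferation markers summed to 666.3 RPKM in ZnF4 fraction B against 1151.8 to 1587.9 elsewhere. Of the 8 natural killer and cytotoxic markers, 6 were at 0 in ZnF4 fraction B. Xist, the RNA of the inactive X chromosome, was at 81.3 and 91.9 RPKM in the wt libraries and listed at 0 in the 4 mutant libraries, where Y-linked Eif2s3y was between 34.4 and 55.1 RPKM, so genotype against wt and sex cannot be told apart. Ikzf1 itself was at 150.3 and 169.4 RPKM in wt, 181.5 and 154.1 in the ZnF1 mutant and 431.6 and 425.1 in the ZnF4 mutant (fractions B and C). These are levels of its listed transcript with the highest mean, and they do not show which finger is missing. In bulk RNA, fewer cells of a type and less RNA per cell cannot be told apart.

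The genes were tested with limma, a linear model moderated over all genes, on log2(RPKM + 1) with genotype and fraction as additive terms. Folds below are also on the RPKM + 1 scale, which understates differences of low genes. The p-values set each difference against a spread that comes only from departures from additive genotype and fraction effects. That spread is moderated over all genes and, with no replicates, does not measure variation between samples of the same group. With Benjamini-Hochberg adjustment over all genes, none of the 34 subunits passed 0.05 in limma in any of the 4 comparisons. Among all genes tested, limma called 0.0274% in the ZnF4 mutant against wt, 0.0274% in the ZnF1 mutant against wt, 1.82% in the ZnF4 against the ZnF1 mutant and 0.0% in fraction C against B. At an unadjusted p under 0.05 in limma, 1 subunit (Mta3), 0, 1 (Mta3) and 2 (Mbd2 and Arid1b) stood out in these comparisons, against 17.6%, 9.3%, 22.7% and 4.67% of all genes.

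Levels spanned a wide range. Smarca4, the Brg1 ATPase that drives SWI/SNF, was highest, between 227.5 and 470.2 RPKM. Ezh2, the histone H3K27 methyltransferase of Polycomb repressive complex 2, followed with 110.0 to 228.4 RPKM. The NuRD ATPase Chd4 was between 108.5 and 156.6 RPKM and its scaffold Mta2 between 107.9 and 155.2 RPKM. The SWI/SNF accessory subunit Smarcd2 (98.6 to 152.5 RPKM) and the corepressor Ctbp1 (107.3 to 149.6 RPKM) were of similar level. These 6 genes were the only members with a mean above 100 RPKM. At the low end, after Smarcd3, were Ctbp2 (0.5 to 4.2 RPKM), Bmi1 (2.4 to 6.6 RPKM), a ring finger subunit of Polycomb repressive complex 1, and the deacetylase Hdac1 (5.5 to 9.8 RPKM). Transcripts of other genes share near-identical sequence with Hdac1, Smarce1, Bmi1, Rbbp7, Smarcc1 and Rbbp4. How such reads were assigned is not given in the sources used here, so the levels of these 6 are uncertain.

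**Figure D1:**
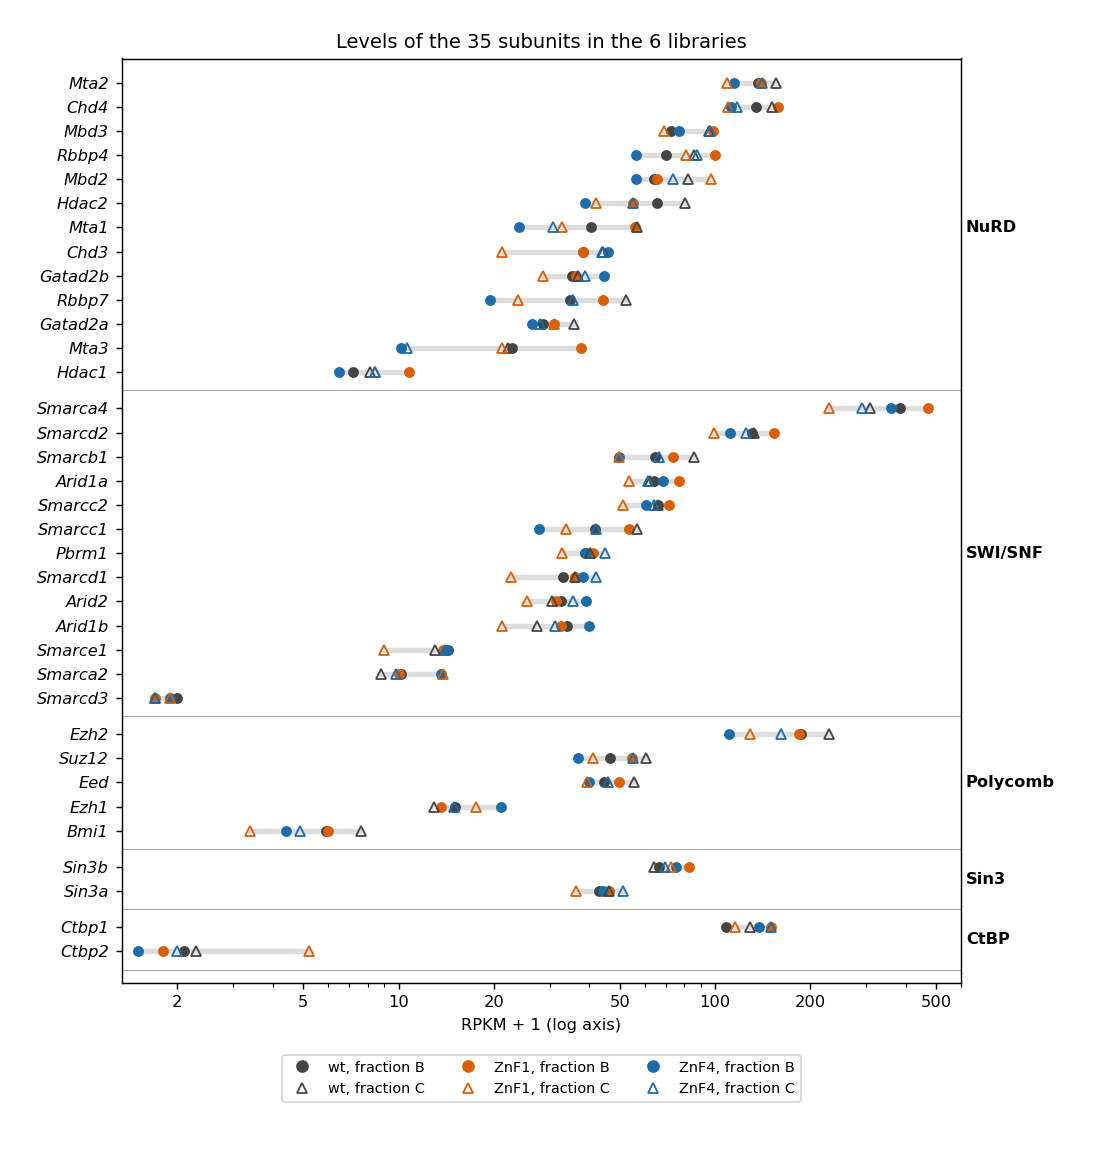
Each row is 1 subunit, with its RPKM + 1 (log axis) in each of the 6 libraries and a grey bar from the lowest to the highest. Colours mark genotypes, and circles and triangles mark fractions B and C. Smarca4 is highest and Smarcd3 and Ctbp2 are lowest, and both blue ZnF4 points of Mta3 lie left of its other 4.

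Within some families 1 gene dominated, and others were more even. This was judged by the ratio of RPKM + 1 of related genes, since RPKM is per length. The ATPase Smarca4 exceeded its relative Smarca2 (Brm) by 16.6-fold (ZnF1 mutant, fraction C) to 47.1-fold (ZnF1 mutant, fraction B). The methyltransferase Ezh2 exceeded its relative Ezh1 by 5.26-fold (ZnF4 mutant, fraction B) to 17.8-fold (wt, fraction C). Hdac2 exceeded Hdac1 by 5.02-fold to 9.94-fold, with the sharing of Hdac1 reads as a limit. Ctbp1 exceeded Ctbp2 by 22.2-fold in ZnF1 fraction C and by 51.6-fold to 91.7-fold in the other 5 libraries, where Ctbp2 was at 0.5 to 1.3 RPKM and its rounding limits the fold. Among the more even families, Arid1a exceeded Arid1b, alternative DNA-binding subunits of the BAF form of SWI/SNF, by 1.71-fold to 2.52-fold. Sin3b exceeded Sin3a, the other scaffold of the Sin3 complex, by 1.36-fold to 1.997-fold when represented by its short transcript of 1033 bases. The Sin3b transcript of 4136 bases was at 8.1 to 14.8 RPKM, below Sin3a (35.3 to 50.1 RPKM) in every library, so the order depends on the transcript. Mbd3, the methyl-CpG-binding-domain subunit of NuRD that does not need methylated DNA, exceeded its methyl-DNA-binding relative Mbd2 by 1.13-fold to 1.505-fold in 5 libraries. In ZnF1 fraction C, the library with the high myeloid sum, the order was the other way, with a log2 ratio of Mbd2 to Mbd3 of 0.50.

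In the balance of the Mta scaffolds Mta1 and Mta3 to Mta2, and of 3 other pairs, the ZnF4 libraries lay outside the range of the other 4. Mta2 exceeded Mta3 by 11.3-fold and 13.2-fold in ZnF4 fractions B and C, against 5.98-fold and 7.07-fold in wt and 3.70-fold and 5.14-fold in the ZnF1 mutant. Mta2 exceeded Mta1 by 4.80-fold and 4.56-fold in the ZnF4 mutant, against 3.35-fold and 2.75-fold in wt and 2.49-fold and 3.32-fold in the ZnF1 mutant. Neither range of the ZnF4 libraries overlapped those of the other 4. For the ATPases, Chd4 exceeded Chd3 by 2.46-fold and 2.67-fold in the ZnF4 mutant, by 3.52-fold and 3.43-fold in wt and by 4.11-fold and 5.14-fold in the ZnF1 mutant, again without overlap. Gatad2b exceeded Gatad2a, alternative zinc finger linkers to the ATPase, by 1.69-fold and 1.38-fold in the ZnF4 mutant, while the log2 ratio of Gatad2a to Gatad2b was between -0.30 and 0.11 in the others. Smarcd2 exceeded Smarcd1 by 2.91-fold and 2.98-fold in the ZnF4 mutant and by 3.65-fold to 4.39-fold in the others. In the remaining pairs compared, Mta3 to Mta1 among them, the ZnF4 libraries overlapped the range of the others. How often such a separation occurs over pairs of genes in general was not counted. With 1 library per group and no test of a ratio, these are descriptions and not a trait shown for the ZnF4 mutant.

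**Figure D2:**
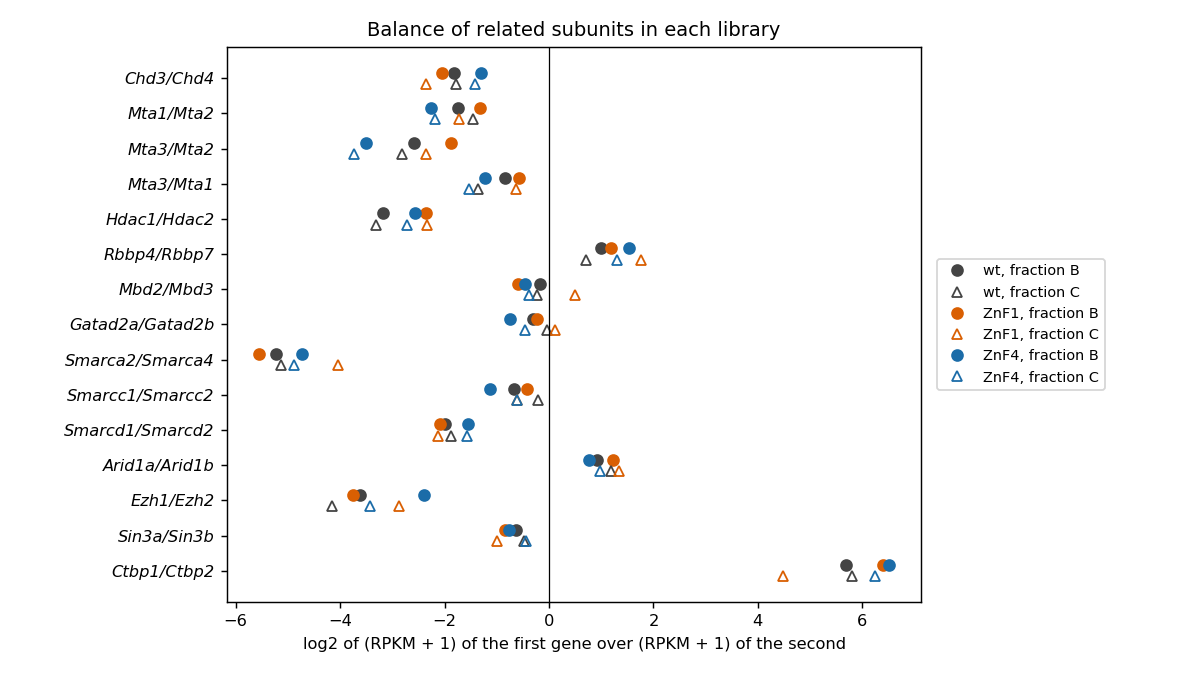
Each row is a pair of related subunits, and the axis is log2 of RPKM + 1 of the first over the second in each library. Colours mark genotypes, and circles and triangles mark fractions B and C. In the rows of Mta1/Mta2 and Mta3/Mta2 both blue ZnF4 points lie left of all others, and in the rows of Chd3/Chd4 and Smarcd1/Smarcd2 they lie right of all others.

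The ZnF4 mutant against wt asks what loss of the fourth finger does at each stage. Mta3 and Mta1, both NuRD scaffolds, were the only subunits at least 1.5-fold apart in the same direction in both fractions, a count that went from 2 to 13 with libraries shifted to equal B lineage markers. Of the 34 subunits, 2 were thus at least 1.5-fold lower in both fractions, against 12.5% of all genes, and 0 were at least 1.5-fold higher in both, against 6.42%. In fraction B 6 of 34 were at least 1.5-fold lower (21.3% of all genes) and in fraction C 3 of 34 (15.8%). In neither fraction was any at least 1.5-fold higher, where 10.1% and 9.48% of all genes were. By these counts the complexes as a whole were no more often lower than genes in general. The median log2 difference was -0.14 in fraction B and -0.06 in fraction C, beside -0.09 and -0.05 over all genes. Lower by any amount were 21 of 34 in fraction B (55.8% of all genes) and 20 of 34 in fraction C (53.0%). Of the 34, 18 were lower in both fractions and 11 higher in both, where 45.4% and 35.1% of all genes were. With every library shifted to the same mean of the 10 B lineage markers, 32 and 34 of 34 were lower in fractions B and C and the median of all genes moved to -0.47 and -0.58, so the split depends on the scale. The markers behind this shift differed by genotype themselves: 8 of 10 were higher in the ZnF4 mutant than in wt in both fractions and 2 lower. Their median log2 differences were 0.45 in fraction B and 0.61 in fraction C.

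Mta3, a NuRD scaffold known in B cells for its work with Bcl6, had the largest difference. It was at 21.8, 36.7 and 9.2 RPKM in fraction B and 21.1, 20.2 and 9.6 RPKM in fraction C, in wt, ZnF1 and ZnF4 mutants in that order. The ZnF4 libraries were the lowest in both fractions and did not overlap the other 4, while the ZnF1 fraction B library was the highest. How often genes in general show such a separation was not counted. Mta3 was 2.24-fold lower in the ZnF4 mutant than in wt in fraction B and 2.08-fold lower in fraction C. It was the only subunit at least 2-fold lower in both, where 4.73% of all genes were. The limma estimate was -1.11 ± 0.28 (log2, SE), with an unadjusted p of 0.0129 and an adjusted p of 0.175 in limma. Its other 2 measured transcripts gave 7.4, 17.8 and 2.8 RPKM and 4.3, 6.4 and 2.2 RPKM in fraction B, and 7.0, 7.9 and 3.7 RPKM and 3.7, 3.7 and 1.7 RPKM in fraction C, in the same genotype order. Both were lowest in the ZnF4 library of each fraction, as the main transcript was.

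Mta1, the scaffold most often linked to tumours, was at 39.7, 55.0 and 23.0 RPKM in fraction B and 55.8, 31.8 and 29.8 RPKM in fraction C, in the same order. The ZnF4 library was lowest in each fraction, in fraction C only narrowly below the ZnF1 library. Mta1 was 1.70-fold and 1.84-fold lower than in wt in fractions B and C, with a limma estimate of -0.82 ± 0.36 (log2, SE) and an adjusted p of 0.335. Mta2, the most abundant scaffold, stood at 135.4, 138.3 and 114.1 RPKM and 155.2, 107.9 and 139.4 RPKM, only 1.19-fold and 1.11-fold lower in the ZnF4 mutant than in wt.

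**Figure D3:**
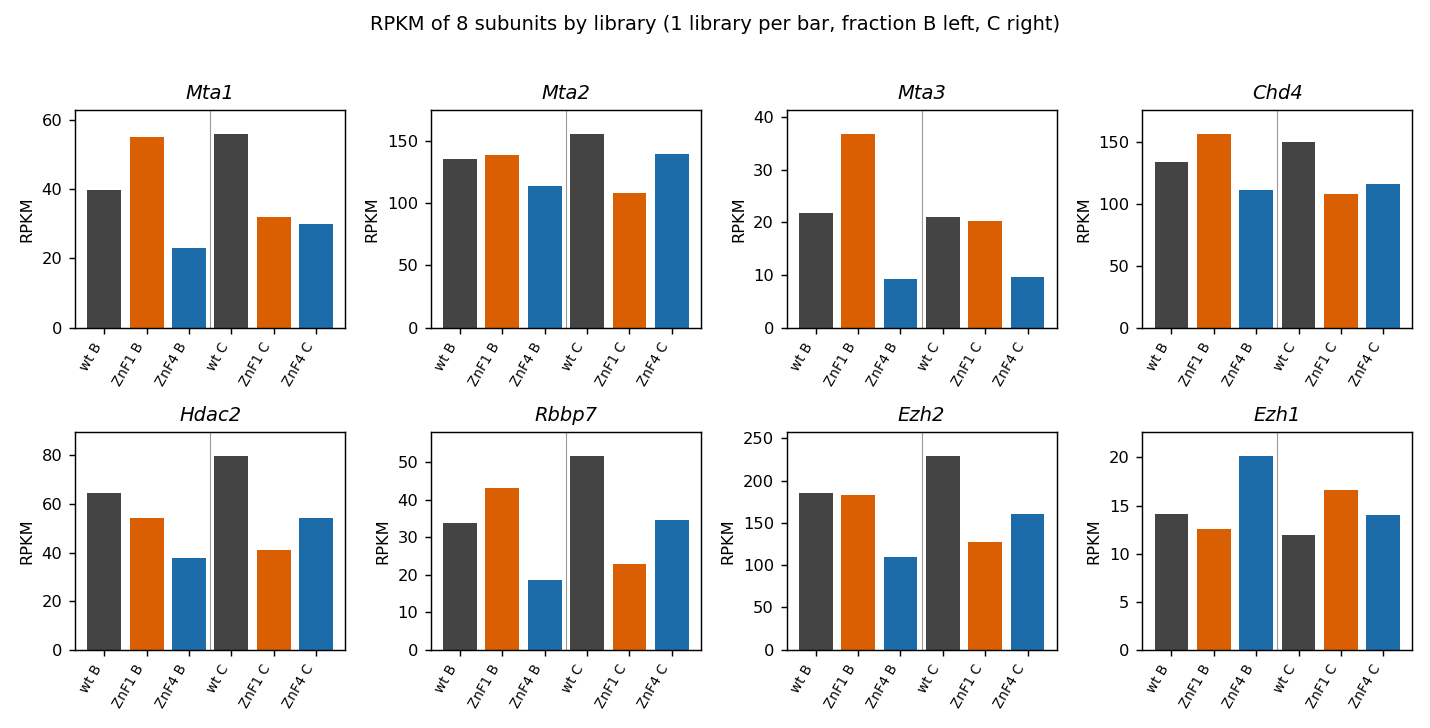
Bars give the RPKM of 8 subunits in each library, from 0, with fraction B left and fraction C right of the line. 1 bar is 1 library, so there is no error bar. The blue ZnF4 bars of Mta3 (9.2 and 9.6 RPKM) are the lowest of its 6, those of Mta2 stay within the range of the others in fraction C, and those of Ezh2, Hdac2 and Rbbp7 are lower in fraction B than in C.

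The enzymes and histone-binding proteins of NuRD were mostly lower as well, by less. Hdac2, a class I deacetylase, was at 64.5, 54.2 and 37.7 RPKM in fraction B and 79.5, 41.2 and 54.0 RPKM in fraction C (wt, ZnF1, ZnF4). It was 1.69-fold and 1.46-fold lower in the ZnF4 mutant than in wt, with a limma estimate of -0.65 ± 0.27 (log2, SE) and an adjusted p of 0.314. Wt had the highest level in both fractions. Rbbp7, an X-linked histone H4-binding protein shared by NuRD, Sin3 and Polycomb complexes, was at 33.9, 43.1 and 18.5 RPKM and 51.5, 22.9 and 34.7 RPKM, 1.79-fold and 1.47-fold lower in the ZnF4 mutant than in wt. Its estimate was -0.70 ± 0.47 (log2, SE; adjusted p = 0.490, limma). Its relative Rbbp4 was 1.25-fold lower in fraction B and 1.02-fold higher in fraction C. The ATPase Chd4 was at 134.0 and 111.5 RPKM in wt and ZnF4 fraction B and 150.4 and 116.0 RPKM in fraction C, 1.20-fold and 1.29-fold lower. Chd3 was 1.20-fold higher and 1.01-fold lower, Gatad2b 1.26-fold and 1.05-fold higher, Gatad2a 1.09-fold and 1.28-fold lower, Mbd2 1.14-fold and 1.11-fold lower, Mbd3 1.06-fold and 1.01-fold higher, and Hdac1 1.11-fold lower and 1.04-fold higher. In all, 8 of the 13 NuRD genes were lower in both fractions and 2 higher in both, where 45.4% and 35.1% of all genes were. Of 4 other genes listed with NuRD and tested, Zmynd8 was lower and Mbd1, Mbd4 and Kdm1a were higher in both. Mbd1 and Mbd4 are related to Mbd2 and Mbd3 but are not NuRD subunits.

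In Polycomb repressive complex 2 the related methyltransferases differed from wt in opposite directions. Ezh2 was at 185.7, 182.9 and 110.0 RPKM in fraction B and 228.4, 127.5 and 160.5 RPKM in fraction C (wt, ZnF1, ZnF4), and so was 1.68-fold and 1.42-fold lower in the ZnF4 mutant than in wt (limma estimate -0.63 ± 0.32, log2, SE; adjusted p = 0.386). Ezh1, the form typical of non-dividing cells, was at 14.1, 12.6 and 20.1 RPKM and 11.9, 16.6 and 14.0 RPKM, 1.40-fold and 1.16-fold higher than in wt, a direction that turns in fraction C when libraries are shifted to equal B lineage markers. Suz12 and Eed, the partners that Ezh2 needs for activity, were 1.26-fold and 1.12-fold lower in fraction B and 1.11-fold and 1.21-fold lower in fraction C. Bmi1 was 1.34-fold and 1.55-fold lower, between 3.4 and 6.6 RPKM in these 4 libraries. Thus 4 of 5 Polycomb genes were lower in both fractions, where 45.4% of all genes were. Of 30 other genes listed with Polycomb and tested, 14 were lower and 10 higher in both. The 14 include Kdm6a and Kdm6b, which are H3K27 demethylases and not Polycomb subunits. The complexes were not tested against each other.

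SWI/SNF genes were mixed, with 5 of 12 tested lower and 5 higher in both fractions, where 45.4% and 35.1% of all genes were. Smarca4 was at 382.8 and 358.8 RPKM in wt and ZnF4 fraction B and 308.5 and 289.5 RPKM in fraction C, 1.07-fold lower in each. The core subunits Smarcc1 (1.504-fold and 1.35-fold) and Smarcb1 (1.30-fold and 1.28-fold) were lower by the most in fractions B and C. Smarcd2 was 1.17-fold and 1.06-fold lower, and Smarcc2, a relative of Smarcc1, 1.09-fold and 1.03-fold lower. The 5 that were higher were Smarca2 (1.33-fold and 1.11-fold), Smarcd1 (1.16-fold in both), Arid1b (1.18-fold and 1.14-fold), Arid2 (1.20-fold and 1.17-fold) and Pbrm1 (1.01-fold and 1.12-fold), all of which turned lower in fraction C with equal B lineage markers. Arid2 and Pbrm1 (polybromo) define the PBAF form of SWI/SNF. Arid1a and the HMG-box subunit Smarce1 were within 1.08-fold of wt in both fractions. Sin3a (1.03-fold and 1.11-fold), Sin3b (1.13-fold and 1.08-fold) and Ctbp1 (1.27-fold and 1.17-fold) were higher in both fractions, and all 3 turned lower in both fractions with libraries shifted to equal B lineage markers. Ctbp2 was 1.40-fold and 1.15-fold lower, at 0.5 and 1.0 RPKM, where the rounding to 0.1 RPKM limits any fold.

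Some of these differences moved with the proliferation markers, and their part in them was not tested. All 14 proliferation markers were lower in ZnF4 than in wt fraction B, with a median log2 difference of -0.82, and 10 of 14 in fraction C, with a median of -0.26. Ezh2, Hdac2, Rbbp7 and Smarcc1 were also further below wt in fraction B than in fraction C. Among the subunits lower in both fractions, Mta1, Chd4, Gatad2a, Eed and Bmi1 were instead further below wt in fraction C. The rest of those lower in both were further below wt in fraction B. From fraction B to C within the ZnF4 mutant the proliferation sum went from 666.3 to 1431.2 RPKM, while Mta3 was at 9.2 and 9.6 RPKM and Mta1 at 23.0 and 29.8 RPKM. Sex differs between wt and mutant libraries, and its part in the values of the X-linked Rbbp7 cannot be told apart from that of genotype.

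The ZnF4 estimates above rest on the wt and ZnF4 libraries alone, so leaving out ZnF1 libraries cannot change them. The calls do not stay the same. Without the ZnF1 fraction C library, limma called 7 of 34 subunits in the ZnF4 mutant against wt, all lower: Mta3 (adjusted p = 0.00621), Mta1 (0.00896), Hdac2 (0.0151), Rbbp7 (0.0159), Ezh2 (0.0209), Smarcc1 (0.0235) and Smarcb1 (0.0411). The fit over only the 4 libraries compared and the fit without ZnF1 fraction B also called 7. These fits called 3372 to 3494 genes in all and leave 1 residual degree of freedom per gene, so their spread comes from fewer departures from additivity. Leaving out a wt or ZnF4 library left no subunit called in this comparison.

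Promoters of the subunits lowest in the ZnF4 mutant by the limma estimate are printed because Ikaros binds DNA through a GGGAA core. The 5 lowest were Mta3, Mta1, Rbbp7, Hdac2 and Ezh2, a choice made after their values were seen. A promoter was in the table used for 4 of these, and for 29 of the 35 genes in all. Each sequence runs 5′ to 3′ on the gene's strand from 250 bases before to 50 bases after a transcription start annotated by RefSeq (GRCm38.p6). GGGAA, or TTCCC for the other strand, is in capitals where present. They lie at chr12:113098028-113098327 (Mta1, plus strand), chrX:162760122-162760421 (Rbbp7, plus), chr10:36974294-36974593 (Hdac2, plus) and chr6:47594981-47595280 (Ezh2, minus).
Mta1: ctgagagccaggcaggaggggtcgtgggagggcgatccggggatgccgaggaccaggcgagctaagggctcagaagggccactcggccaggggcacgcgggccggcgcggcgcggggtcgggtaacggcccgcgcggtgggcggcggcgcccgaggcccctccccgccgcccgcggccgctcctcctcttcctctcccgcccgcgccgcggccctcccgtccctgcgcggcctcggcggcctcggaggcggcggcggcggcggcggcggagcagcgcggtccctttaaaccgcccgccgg
Rbbp7: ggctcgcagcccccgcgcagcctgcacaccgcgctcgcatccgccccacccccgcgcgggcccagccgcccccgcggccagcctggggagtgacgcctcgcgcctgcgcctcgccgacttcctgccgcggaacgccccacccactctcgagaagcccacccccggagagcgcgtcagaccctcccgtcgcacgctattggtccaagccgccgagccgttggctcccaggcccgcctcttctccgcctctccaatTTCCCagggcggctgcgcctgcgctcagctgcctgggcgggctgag
Hdac2: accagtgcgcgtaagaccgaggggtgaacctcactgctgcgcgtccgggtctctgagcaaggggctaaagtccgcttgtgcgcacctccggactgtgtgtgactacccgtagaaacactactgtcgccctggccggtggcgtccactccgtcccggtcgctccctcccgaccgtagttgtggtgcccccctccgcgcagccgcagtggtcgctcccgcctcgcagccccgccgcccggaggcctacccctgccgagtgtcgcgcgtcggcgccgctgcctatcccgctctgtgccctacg
Ezh2: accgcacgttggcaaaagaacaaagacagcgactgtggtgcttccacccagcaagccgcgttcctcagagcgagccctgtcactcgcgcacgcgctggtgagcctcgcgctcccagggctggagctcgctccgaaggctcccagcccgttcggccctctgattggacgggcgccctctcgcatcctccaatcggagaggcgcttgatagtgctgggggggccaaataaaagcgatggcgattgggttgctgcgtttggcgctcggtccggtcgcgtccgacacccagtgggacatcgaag
Only the Rbbp7 window holds the motif, once, as TTCCC from base 255, which is after the start site. All 4 windows are rich in G and C, from 64.3% (Ezh2) to 81.0% (Mta1), where the median was 65.7% over the subunits' promoters and 60.7% over promoters of all genes tested. GGGAA on either strand was in 20 of the 35 promoters of the subunits (57.1%), in 64.2% of 9928 promoters of genes tested and in 62.7% of all 32851 promoters. GCGGGAA, an E2F-type word that contains GGGAA, was in 14.3% of the subunits' promoters and 8.45% of those of genes tested. A match or its lack describes these letters in this window and says nothing of binding.

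The ZnF1 mutant against wt asks the same of the first finger, and shares its wt libraries with the comparison above. The subunits stood on opposite sides of wt in the 2 fractions: 25 of 34 were higher in fraction B (8 lower) and 28 of 34 lower in fraction C. Of all genes, 43.8% were lower in fraction B and 58.8% in fraction C. The median log2 difference of the subunits was 0.12 in fraction B, against 0.04 over all genes, and -0.39 in fraction C, against -0.16. With libraries shifted to equal B lineage markers the splits turned, to 28 of 34 lower in fraction B and 24 of 34 higher in fraction C. No subunit was at least 1.5-fold apart in the same direction in both fractions, where 2.65% of all genes were higher and 2.39% lower.

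In fraction B, 2 of 34 subunits exceeded wt by 1.5-fold or more in the ZnF1 mutant, Mta3 (1.65-fold) and Hdac1 (1.5-fold), where 7.56% of all genes were, and 0 were at least 1.5-fold lower, where 6.58% were. Rbbp4 was 1.43-fold higher (68.9 RPKM in wt and 98.8 in the mutant), Ctbp1 1.39-fold (107.3 and 149.6 RPKM), Mta1 1.38-fold (39.7 and 55.0 RPKM) and Mbd3 1.36-fold (71.4 and 97.4 RPKM). Smarca4 was 1.23-fold higher. Hdac2 was the only NuRD gene below wt, by 1.19-fold, and Chd3 was equal at 37.3 RPKM.

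In fraction C, 9 of 34 subunits were at least 1.5-fold lower (23.0% of all genes) and 2 of 34 at least 1.5-fold higher (19.1% of all genes), all from the single library with the high myeloid and erythroid sums. The lower ones were Bmi1 (2.24-fold), Rbbp7 (2.20-fold), Chd3 (2.07-fold), Hdac2 (1.91-fold), Ezh2 (1.79-fold), Mta1 (1.73-fold), Smarcb1 (1.72-fold), Smarcc1 (1.68-fold) and Smarcd1 (1.59-fold). Ctbp2 (2.26-fold, at 4.2 RPKM against 1.3 in wt) and the ATPase Smarca2 (1.57-fold, at 12.8 against 7.8 RPKM) were higher. Ezh1 was 1.36-fold higher at 16.6 against 11.9 RPKM, and Mbd2 1.19-fold higher at 96.3 against 80.9 RPKM. In fraction B of the same genotype, where the myeloid sum was 1689.5 RPKM, the 4 were at 0.8, 9.0, 12.6 and 64.4 RPKM, each within 1.17-fold of wt. The part of the myeloid and erythroid signal in these values was not tested.

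Mta3 was at 20.2 RPKM in ZnF1 fraction C and 21.1 in wt fraction C, 1.04-fold apart, but 1.78-fold below its level in ZnF1 fraction B. With the ZnF1 fraction B library left out, which leaves this genotype resting on the fraction C library alone, limma called 16 of 34 subunits against wt, 14 of them lower, with Smarca2 and Ctbp2 higher, and 4116 of the 10943 genes in all. Without the ZnF1 fraction C library it called 0.

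**Figure D4:**
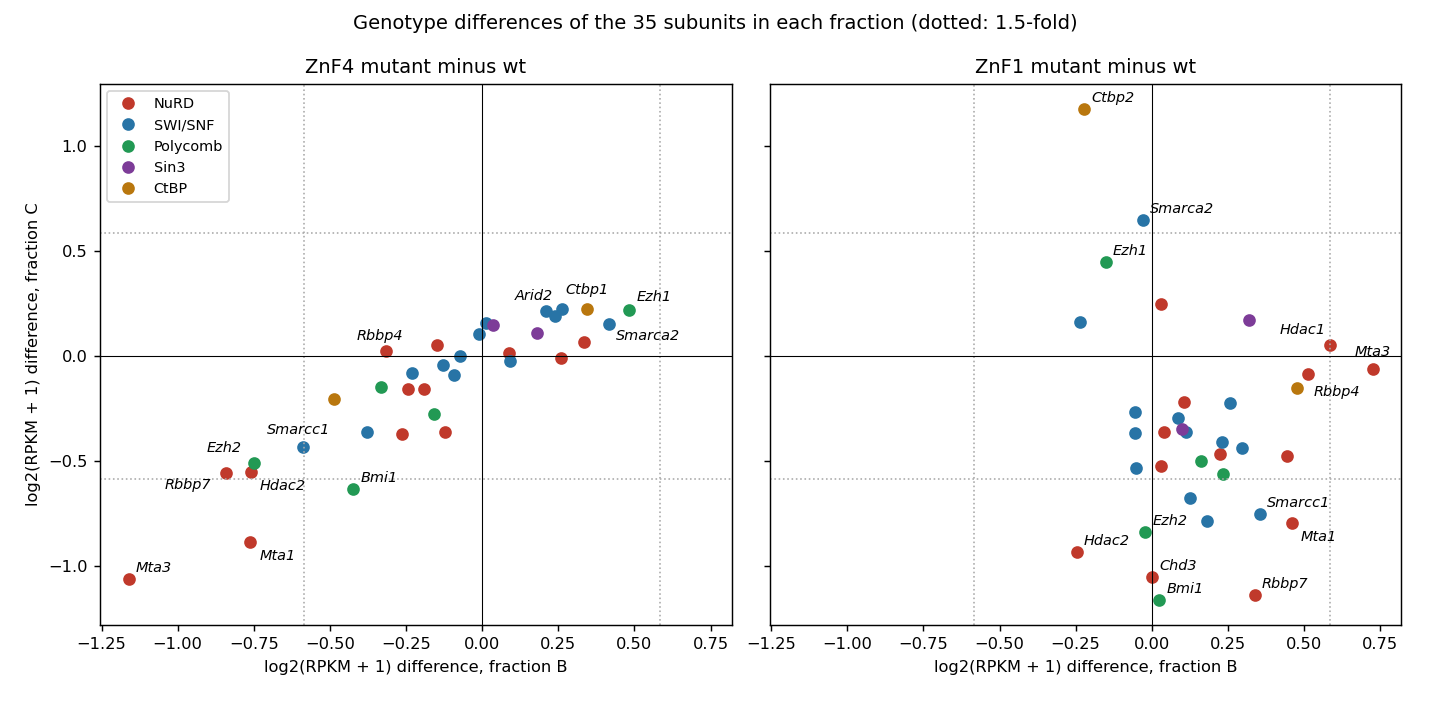
Each point is 1 of the 35 subunits, with its log2(RPKM + 1) difference from wt in fraction B (horizontal) and fraction C (vertical), for the ZnF4 mutant (left) and the ZnF1 mutant (right), and dotted lines mark 1.5-fold. On the left Mta3 and Mta1 alone lie past both lines, at lower left. On the right most points lie below 0 in fraction C and right of 0 in fraction B, with Ctbp2, Smarca2 and Ezh1 above 0 in fraction C.

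The ZnF4 against the ZnF1 mutant sets the fingers against each other within each fraction. The ZnF4 libraries had 3.70-fold less Mta3 in fraction B and 2.0-fold less in fraction C, and Mta3 was the only one of 34 subunits at least 1.5-fold lower in both, where 10.9% of all genes were. None was at least 1.5-fold higher in both, where 7.16% were. Its limma estimate was -1.44 ± 0.28 (log2, SE; unadjusted p = 0.00477, adjusted p = 0.0816). Without the ZnF1 fraction B library the adjusted p in limma was 0.00830 and the estimate -1.02, and without the ZnF1 fraction C library they were 0.00631 and -1.86. Leaving out a ZnF4 or wt library did not bring it past 0.05.

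Of the 34 subunits 6 were higher and 6 lower in both fractions, and the others differed in direction between fractions or were equal in one. The 6 higher in both were Chd3, Gatad2b, Smarcd1, Smarce1, Arid1b and Arid2, and they turned lower in fraction C with libraries shifted to equal B lineage markers. The 6 lower in both were Mta1, Mta3, Mbd2, Gatad2a, Sin3b and Ctbp2. For Sin3b this holds for its short transcript only. Its transcript of 4136 bases was higher in the ZnF4 than in the ZnF1 mutant, at 14.8 against 12.1 RPKM in fraction B and 11.7 against 8.1 RPKM in fraction C. In fraction B 26 of 34 subunits were lower in the ZnF4 than in the ZnF1 mutant (60.8% of all genes), and 7 by at least 1.5-fold (24.3% of all genes): Mta3, Mta1 (2.33-fold), Rbbp7 (2.26-fold), Smarcc1 (1.92-fold), Rbbp4 (1.78-fold), Hdac1 (1.66-fold) and Ezh2 (1.66-fold). The 14 proliferation markers were all lower there too, with a median log2 difference of -1.03. Ezh1 was the only one at least 1.5-fold higher, by 1.55-fold, where 11.3% of all genes were. In fraction C 25 of 34 were higher in the ZnF4 mutant (40.8% of all genes were lower), with Chd3 (2.06-fold), Smarcd1 (1.85-fold) and Smarce1 (1.56-fold) past 1.5-fold, where 20.0% of all genes were, and with libraries shifted to equal B lineage markers 34 of 34 were lower. Chd3 was at 37.3 and 44.8 RPKM in fraction B and 20.3 and 42.8 RPKM in fraction C of the ZnF1 and ZnF4 mutants, and so its low value was that of ZnF1 fraction C, the library that stands apart. Its limma estimate was 0.65 ± 0.30 (log2, SE; adjusted p = 0.281).

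Fraction C against B asks what changes with stage. In wt 24 of 34 subunits were higher in fraction C, with a median of 0.17 (0.06 over all genes), and in the ZnF4 mutant also 24 of 34, with a median of 0.16 (0.11 over all genes). Of all genes 40.9% and 36.1% were lower in these steps. In wt 12 of 13 NuRD genes were higher, with Mta3 the exception (21.8 and 21.1 RPKM), as were 4 of 5 Polycomb genes and both CtBP genes. The largest was Rbbp7, 1.504-fold higher, and the only subunit past 1.5-fold, where 4.83% of all genes were, and none was at least 1.5-fold lower, where 4.48% were. All 14 proliferation markers were higher in fraction C as well, by a median of 0.45, and their part in the step was not tested. SWI/SNF genes were split, with 5 of 12 higher and 7 lower. In the ZnF4 mutant the step was largest for Rbbp7 (1.83-fold), Rbbp4 (1.56-fold) and Smarcc1 (1.51-fold), 3 of 34 past 1.5-fold against 11.7% of all genes.

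In the ZnF1 mutant 29 of 34 subunits were lower in fraction C (62.4% of all genes), 11 by at least 1.5-fold (15.7% of all genes), and only Ctbp2 was at least 1.5-fold higher (15.3% of all genes). Of those lower, Smarca4 had the largest fold, 2.06, with 470.2 RPKM in fraction B and 227.5 in fraction C. Only Mbd2 and Ctbp2 (the latter at no more than 1.3 RPKM in wt and ZnF4, with values rounded to 0.1) were higher in fraction C in all 3 genotypes, and Smarca4, Smarce1, Arid1a, Arid1b, Arid2 and Sin3b were lower in all 3, where 12.2% and 13.4% of all genes were. None of the 34 was at least 1.5-fold higher or lower in all 3 genotypes, where 0.146% and 0.411% of all genes were. Mbd2 was at 63.1, 64.4 and 55.1 RPKM in fraction B and 80.9, 96.3 and 72.5 RPKM in fraction C (wt, ZnF1, ZnF4), and every fraction C library lay above every fraction B library. Its limma estimate was 0.44 ± 0.14 (log2, SE; unadjusted p = 0.0298, adjusted p = 0.854). Like Mbd2, Arid1b separated the fractions without overlap, and how often genes in general do so was not counted. It was at 33.0, 31.7 and 39.1 RPKM in fraction B and 26.3, 20.2 and 30.2 RPKM in fraction C. Its estimate was -0.43 ± 0.14 (log2, SE; unadjusted p = 0.0309, adjusted p = 0.854), and it turned to 0.18 with libraries shifted to equal B lineage markers, a scale on which 34, 34 and 29 of 34 subunits were higher in fraction C in wt, ZnF1 and ZnF4.

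Of 110 further subunits and related chromatin enzymes listed, 98 were tested, and 2 of them, the deacetylases Hdac9 and Hdac5, passed limma in the ZnF4 against the ZnF1 mutant, where 1.82% of all genes did. No gene passed in that comparison without the low-value filter or without either ZnF4 library. In the ZnF4 mutant against wt, 6 of 98 were at least 1.5-fold higher and 9 of 98 at least 1.5-fold lower in both fractions, near the 6.42% and 12.5% of all genes. Hdac9, a class IIa deacetylase that acts with NCoR corepressors, was at 8.0, 1.2 and 32.0 RPKM in fraction B and 11.3, 2.1 and 27.7 RPKM in fraction C (wt, ZnF1, ZnF4). Every ZnF4 value was above and every ZnF1 value below wt. Hdac9 was 15.0-fold and 9.26-fold higher in the ZnF4 than in the ZnF1 mutant, and passed limma in that comparison (3.56 ± 0.25, log2, SE; adjusted p = 0.0359). Hdac5, of the same class, was at 56.0, 32.9 and 110.8 RPKM and 54.2, 27.7 and 82.8 RPKM, in the same order of genotypes. It was 3.30-fold and 2.92-fold higher in the ZnF4 than in the ZnF1 mutant and also passed limma (1.63 ± 0.18, log2, SE; adjusted p = 0.0410).

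Hdac11, the class IV deacetylase, was at 10.8, 21.5 and 3.9 RPKM in fraction B and 10.2, 9.9 and 2.8 RPKM in fraction C, the same order of genotypes as Mta3 in each fraction. It was 2.41-fold and 2.95-fold lower in the ZnF4 mutant than in wt (limma estimate -1.41 ± 0.29, log2, SE; adjusted p = 0.144). Cbx7, a chromodomain subunit of Polycomb repressive complex 1 that reads H3K27 methylation, was at 19.8, 20.4 and 48.1 RPKM and 11.1, 12.3 and 26.5 RPKM. It was 2.36-fold and 2.27-fold higher in the ZnF4 mutant than in wt (1.21 ± 0.16, log2, SE; adjusted p = 0.101). These 4 were the only ones of the 98 at least 2-fold apart in the same direction in both fractions in any genotype comparison. In the ZnF4 mutant against wt 2 of 98 were higher and 1 lower, beside 283 and 518 of all 10943 genes. In the ZnF4 against the ZnF1 mutant 3 were higher and 1 lower, beside 340 and 596 of all genes. In the ZnF1 mutant against wt 0 were higher and 1 lower, beside 83 and 88 of all genes.

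**Figure D5:**
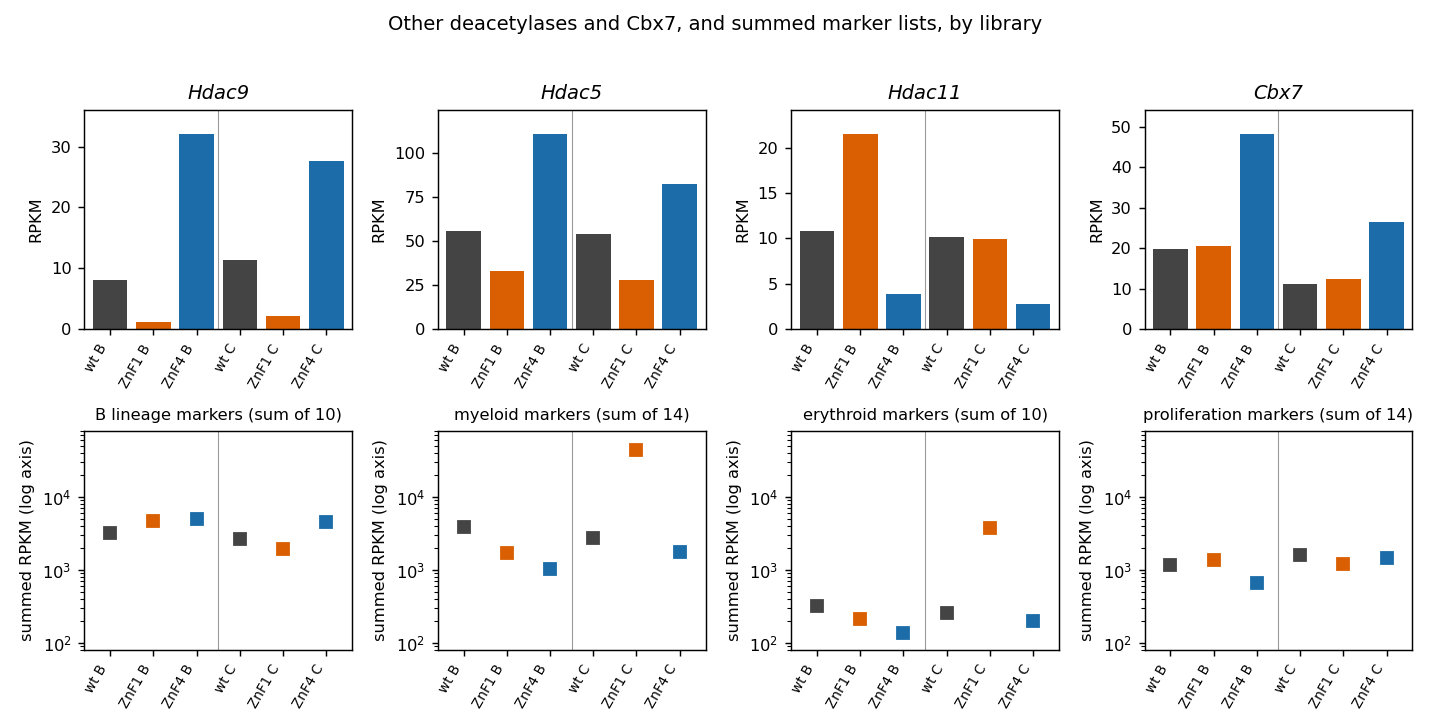
Bars in the upper row give the RPKM of Hdac9, Hdac5, Hdac11 and Cbx7 in each library, from 0, and squares in the lower row give the summed RPKM of 4 marker lists (log axis). Hdac9 and Hdac5 are highest in ZnF4 and lowest in ZnF1 libraries, and the myeloid and erythroid sums are highest in ZnF1 fraction C (43505.1 and 3749.6 RPKM).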

How the data were processed

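RNA was sequenced from 6 libraries, 1 for each of 3 genotypes in each of 2 sorted proB fractions. The authors deposited 1 table of RPKM values rounded to 0.1, per the file headers, and a gene length per transcript. TopHat, bedtools and the mm9 build are named per the submitters' processing notes, which give no version or role. The sources used here do not give the RPKM denominator, the use of strand or the treatment of shared reads. The table had 26532 rows, 1 without a gene name, and 22098 symbols, of which 3305 had several transcripts. The transcript with the highest mean represented each symbol, and the 10943 genes whose mean was 1 RPKM or more were tested. No column belonged to another sample (0 such columns).

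Depth is unknown. In transcripts up to 600 bases with values up to 3 RPKM, the best step gave whole reads (within 0.05 RPKM) for only 40.0% to 56.9% of values per library, so no count test was run.

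On log2(RPKM + 1), limma 3.58.1 in R 4.3.3 (lmFit, eBayes with trend) was fitted to all 6 libraries with additive genotype and fraction terms, leaving 2 residual degrees of freedom, with Benjamini-Hochberg adjustment over all genes and a two-sided threshold of 0.05. Pairs of libraries were described by folds of at least 1.5 and 2, with the same count over all genes as background. The procedure was tested on simulated data. Near-identical transcripts (at least 95% identity over at least 300 bases) were sought with blastn 2.17.0 in GENCODE transcripts. Alternatives were a pseudocount of 0.25, no low-value filter, summed transcripts, libraries shifted to equal medians or equal means of the 10 B lineage markers, no trend, only the 4 libraries compared, and each library left out.

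The members, gene lists and tests were chosen with earlier results of these data known. All 35 members are described, and other subunits are named where both fractions differed by 2-fold or more the same way. Of the 35, 29 matched a RefSeq promoter by symbol.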

Additional observations from a re-analysis of the deposited data

Results flagged for a closer look

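In 14 cases a subunit differed by at least 1.25-fold in opposite directions in the 2 fractions under the same genotype contrast. The values are log2(RPKM + 1) differences between single libraries, and the difference between fractions was not tested. How often this occurs over all genes was not counted. The median over all genes also lay on opposite sides of 0. It was 0.04 in fraction B and -0.16 in fraction C for the ZnF1 mutant minus wt. For the ZnF4 minus the ZnF1 mutant it was -0.17 and 0.13. In the ZnF1 mutant minus wt there were 4 such subunits, all above wt in fraction B and below it in fraction C. Mta1 was at 0.46 and -0.79, Rbbp7 at 0.34 and -1.14, Mbd3 at 0.44 and -0.47, and Smarcc1 at 0.36 and -0.75.

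In the ZnF4 minus the ZnF1 mutant there were 10. Of NuRD, Hdac2 was at -0.51 in fraction B and 0.38 in fraction C, Rbbp7 at -1.18 and 0.58, and Mbd3 at -0.35 and 0.49. Of SWI/SNF, the ATPase Smarca4 was at -0.39 and 0.35, Smarcb1 at -0.56 and 0.42, Smarcd2 at -0.46 and 0.33, and the alternative ATPase Smarca2, as the only one higher in fraction B, at 0.44 and -0.49. Of Polycomb, Ezh2 was at -0.73 and 0.33, Suz12 at -0.57 and 0.41, and Bmi1 at -0.45 and 0.53. All 14 cases involve both ZnF1 libraries, of which that of fraction C stands apart by its myeloid and erythroid markers, and the part of either library was not tested. Outlying libraries could not be sought within groups, since each group is 1 library.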

How the results depend on the processing

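No paired analysis was possible because each group is 1 library and the labels carry no replicate numbers. The number of genes called by limma depended strongly on the fit. In the ZnF4 mutant against wt it was 3, and became 5 with a pseudocount of 0.25, 0 without a low-value filter, 6 without trend, 3494 with only the 4 libraries compared and 0 with libraries shifted to equal B lineage markers; leaving out each library gave 0 to 3453. In the ZnF1 mutant against wt it was 3, and became 0 without a filter, 5 without trend, 0 with only 4 libraries and 0 with the B lineage shift, and 0 to 4116 with a library left out. In the ZnF4 against the ZnF1 mutant it was 199, and became 0 without a filter, 78 with the B lineage shift, and 0 to 4109 with a library left out. Fraction C against B gave 0 in every limma fit run, with 511 genes at an unadjusted p under 0.05.

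The count of subunits called was 0 in each comparison. It became 7 in the ZnF4 mutant against wt with only the 4 libraries compared, and with a library left out ranged from 0 to 7 there, from 0 to 16 in the ZnF1 mutant against wt and from 0 to 9 in the ZnF4 against the ZnF1 mutant. Subunits at least 1.5-fold lower in both fractions in the ZnF4 mutant against wt went from 2 to 13 with the B lineage shift and to 1 at 2-fold. Those lower in the ZnF4 against the ZnF1 mutant went from 1 to 6 with that shift, and those higher in fraction C in all 3 genotypes from 0 to 6. Without ZnF1 fraction C, thus in fraction B alone, an alternative chosen after seeing the data, the ZnF1 mutant against wt had 2 higher instead of 0, and the ZnF4 against the ZnF1 mutant 1 higher instead of 0 and 7 lower instead of 1. Other libraries left out give no count over both fractions. Arid1b turned from -0.43 to 0.18 in fraction C against B under the B lineage shift. The cause of these changes was not tested. Over the 13 alternatives, 13 of 34 subunits kept their sign in the ZnF4 mutant against wt, Mta3, Mta1 and Hdac2 among them. In the ZnF1 mutant against wt 9 did, in the ZnF4 against the ZnF1 mutant 8, and in fraction C against B 3 (12 alternatives). Dropping the trend cannot change an estimate or its sign. In a genotype comparison, neither can using only the 4 libraries compared nor leaving out a library of the genotype not compared. Values are rounded to 0.1 RPKM, which limits Ctbp2 and Smarcd3.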

Other observations

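Further subunits and related enzymes outside the 34 tested are given as values. In the ZnF4 mutant against wt the SWI/SNF-associated Bcl7a was at 177.1 (wt) and 347.9 RPKM (ZnF4) in fraction B and at 145.4 and 235.5 RPKM in fraction C, 1.96-fold and 1.62-fold higher. The Polycomb repressive complex 2 accessory subunit Mtf2 was at 34.7 and 17.8 RPKM and 36.4 and 21.4 RPKM, 1.90-fold and 1.67-fold lower. Cbx2, a chromodomain relative of Cbx7, was at 19.8 and 7.9 RPKM and 20.5 and 11.4 RPKM, 2.34-fold and 1.73-fold lower, opposite to Cbx7. The ISWI ATPase Smarca5 was at 9.4 and 3.9 RPKM and 10.3 and 5.4 RPKM, 2.12-fold and 1.77-fold lower. The X-linked H3K27 demethylase Kdm6a, which escapes X inactivation, was at 22.1 and 21.0 RPKM in wt and between 13.2 and 14.9 RPKM in all 4 mutant libraries, the same split as Xist. None of the 5 passed limma in this comparison, and they were chosen after their values were seen.

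The sum of the 35 members was lowest in ZnF1 fraction C (1742.8 RPKM) and highest in ZnF1 fraction B (2491.3 RPKM). It was 2151.7 and 1933.6 RPKM in wt and ZnF4 fraction B, and 2350.4 and 2115.3 RPKM in wt and ZnF4 fraction C.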
